A study of Mus musculus with 9 samples.

Results

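The Ly6 surface antigen genes were followed in mouse Lewis lung carcinoma (LLC) cells, a transplantable mouse lung tumour line, in 3 settings. The genes were taken by symbol from a platform annotation table, with the feature of highest mean signal for each gene. Of 6 named genes, 5 had a feature (Ly6c1, Ly6c2, Ly6e, Ly6d and Ly6k, with 1 feature each), among 19505 genes in all. Ly6a had none and was not analysed here. The set was selected on measured values of these same arrays, the log2 differences between the groups, so the values in the 3 comparisons are a description and no p-value is given for the chosen genes.

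All 9 samples were GFP-labelled 3LL cells, another name for LLC, and the strain given is C57/BL6. In the dish group the cells were cultured as a 2-dimensional monolayer for 7 days (n = 3). The subcutaneous group was transplanted under the skin and the lung group into the lung, with recovery of the GFP+ cells after 7 days (n = 3 each). The series text calls the lung group's organ "BLM lungs" and does not spell the letters out. The labels name 1 cell line, no clone and no animal numbers, so the spread between the 3 samples of a group may be technical. A whole-transcript array gave 1 log2 signal per gene and sample. The 90th percentile of the negative control features on an array, 7.20 to 7.73, was used as its background level.

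Ly6 proteins are small cell surface proteins with a 3-finger fold held together by disulphide bridges, and most are tethered to the outer membrane by a glycosylphosphatidylinositol (GPI) anchor. Many of their genes lie side by side in a cluster, and several of them, Ly6a, Ly6c and Ly6e among them, are known to answer to interferons. In the mouse they are used as markers: Ly6c on monocytes, endothelium and some T cells, Ly6a (Sca-1) on stem cells and stroma, and Ly6d on B lineage and squamous epithelial cells. Ly6e restricts the entry of some enveloped viruses and serves as the receptor of the placental fusion protein syncytin-A, and Ly6k is best known from testis, where it is needed for sperm function.

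Ly6c1 and Ly6c2 are near-identical neighbouring copies whose signals followed the same order over the groups, so the 250 bases before the first listed start of each are shown. They come from RefSeq on build GRCm38.p6, minus strand, at chr15:75048838-75049087 for Ly6c1 and chr15:75111972-75112221 for Ly6c2, and the capitals mark the longest run of bases that both hold.
Ly6c1: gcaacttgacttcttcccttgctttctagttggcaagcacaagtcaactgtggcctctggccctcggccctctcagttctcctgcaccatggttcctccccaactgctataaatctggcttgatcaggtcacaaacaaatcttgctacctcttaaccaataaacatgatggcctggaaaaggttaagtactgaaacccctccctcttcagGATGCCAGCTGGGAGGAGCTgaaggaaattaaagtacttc
Ly6c2: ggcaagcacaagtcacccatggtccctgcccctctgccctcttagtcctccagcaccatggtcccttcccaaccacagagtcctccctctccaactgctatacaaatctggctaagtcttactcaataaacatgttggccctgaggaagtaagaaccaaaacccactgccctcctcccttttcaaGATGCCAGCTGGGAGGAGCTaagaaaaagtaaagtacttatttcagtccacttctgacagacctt

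A global alignment of the pair had 171 identical bases over 290 columns, or 59%, with 80 gap columns. The shared run is 20 bases long. It begins 40 bases before the start of Ly6c1 and 65 bases before that of Ly6c2, so the listed starts of the 2 genes do not lie at the same place in the aligned sequence. Of 32851 such windows in the table, 5 held the run: both windows of Ly6c1, both of Ly6c2, and that of the neighbouring relative Ly6a2. On both strands, neither window held the interferon-stimulated response element (GAAA, any 2 bases and GAAA, in 2.98% of all windows). The gamma-activated site TTCNNNGAA (7.02%), the hypoxia response element ACGTG (16.6%) and the AP-1 site TGANTCA (6.75%) were absent from both too. So was CACGTG (6.02%), a form of the E-box CANNTG that itself contains ACGTG. Other forms of the E-box were not searched for, and the shared run holds such a form, CAGCTG. The letters TATAAA stood in the Ly6c1 window and not in that of Ly6c2 (12.4% of windows), and so did CCAAT (33.8%). The TATAAA begins at position -143 counted from the listed Ly6c1 start. A match, or its lack, describes these letters in these windows only.

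Ly6c1 went from background in the dish to a high signal in the transplanted cells. Its log2 signal was 6.27, 4.65 and 5.35 on the dish arrays, 17.60, 17.47 and 17.68 on the subcutaneous arrays, and 11.46, 12.81 and 11.91 on the lung arrays. All dish arrays lay under background, all subcutaneous arrays were the highest, and the lung arrays stood between them, with no overlap between any 2 groups. The group means were 5.42 ± 0.81 (SD, n = 3) in the dish, 17.58 ± 0.11 under the skin and 12.06 ± 0.69 in the lung. Subcutaneous exceeded dish samples by 12.16 on the log2 scale (standard error 0.40), and by at least 10.16 when the background level stands in for the dish signal. Lung exceeded dish samples by 6.64 (standard error 0.40, at least 4.64) and lay 5.52 below subcutaneous samples (95% interval of the log2 difference -6.39 to -4.66), a 46-fold gap. Leaving out each array in turn kept the subcutaneous minus dish difference between 11.77 and 12.58.

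Ly6c2 had the same order of groups with a smaller range. Its log2 signal was 5.60, 6.64 and 5.55 on the dish arrays, 13.30, 14.39 and 14.33 on the subcutaneous arrays, and 9.03, 9.93 and 9.50 on the lung arrays. Again the dish arrays were under background, and no 2 groups overlapped. The difference was 8.07 for subcutaneous minus dish (standard error 0.38, at least 6.58) and 3.55 for lung minus dish (at least 2.06). Lung minus subcutaneous was -4.52 (95% interval -5.33 to -3.71). Since the copies are so alike, a feature of one may also pick up transcripts of the other, and how much of the Ly6c2 signal is its own was not tested. On subcutaneous replicate 1 Ly6c2 was about a log2 unit under the other subcutaneous arrays, while Ly6c1 was level on all 3.

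Ly6e was expressed in every setting and was higher in both transplanted groups than in the dish. Its log2 signal was 15.84, 15.94 and 15.78 in the dish, 18.47, 18.31 and 18.53 under the skin, and 18.41, 18.60 and 17.37 in the lung. Every transplanted sample lay above every dish sample, while the lung and subcutaneous arrays overlapped. The means were 15.85 ± 0.08, 18.44 ± 0.12 and 18.13 ± 0.66 (SD, n = 3). The difference was 2.59 for subcutaneous minus dish (standard error 0.30) and 2.28 for lung minus dish. Lung minus subcutaneous was -0.31, with a 95% interval of -0.96 to 0.34, which includes 0. That value rests on lung replicate 3, which stood 1.13 under the mean of the other 2 lung arrays. Without it, lung minus subcutaneous was 0.07 and lung minus dish 2.65. The highest gene signal on an array was 18.56 to 19.40, so Ly6e lay near the top of the scale in the transplanted cells, and whether the scale holds differences down there was not tested.

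Ly6d and Ly6k were under background on all 9 arrays. For Ly6d the signal was 5.56, 5.88 and 6.02 in the dish, 5.90, 6.68 and 6.22 under the skin, and 5.46, 4.74 and 5.63 in the lung. The lung values all lay under the subcutaneous ones, with a difference of -0.99 (standard error 0.30) and no fold change to give, since both groups were at background. For Ly6k the 9 values ran from 4.03 to 4.52, and the group means of 4.27, 4.19 and 4.23 differed by no more than 0.08. Neither gene was above background in any of the 3 settings.

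**Figure D1:**
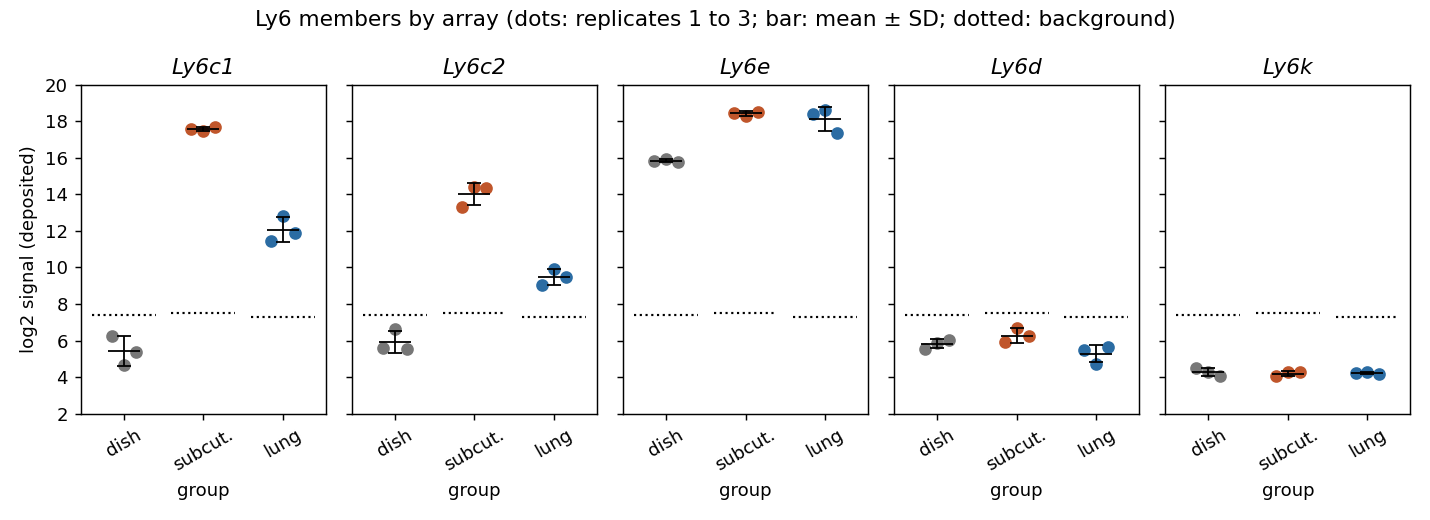
Deposited log2 signal (vertical axis) of the 5 Ly6 genes on each array of the dish, subcutaneous and lung groups; dots are replicates, bars mean ± SD (n = 3), and the dotted line is the mean background level of the group. Ly6c1 goes from 5.42 in the dish to 17.58 under the skin and 12.06 in the lung, Ly6c2 follows the same order, Ly6e is high throughout, and Ly6d and Ly6k stay under the dotted line.

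Calls were made with limma, a linear model fitted to all 9 arrays, where the Benjamini-Hochberg adjusted p over the 19505 genes was below 0.05. Between subcutaneous and dish samples 3 of the 5 Ly6 genes were called higher (Ly6c1, Ly6c2 and Ly6e) and 0 lower, against 6.41% of all genes higher and 6.47% lower. Between lung and dish samples the same 3 were called higher, against 4.81% of all genes higher and 1.97% lower. Between lung and subcutaneous samples 3 were called lower (Ly6c1, Ly6c2 and, at background, Ly6d), against 5.79% of all genes lower and 9.21% higher. The genes were picked with these contrasts known, so nothing is read from the counts. A filter that kept genes above background on at least 3 arrays was passed by 3 of the 5. The first 2 comparisons share the dish samples, so their values are not independent of each other.

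**Figure D2:**
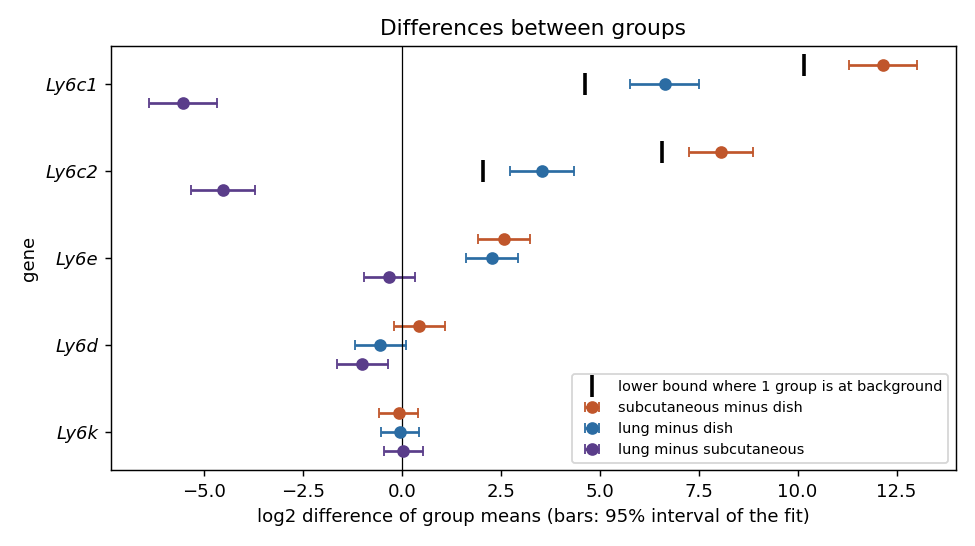
Log2 difference of group means (horizontal axis) for the 5 Ly6 genes in the 3 comparisons, with the 95% interval of the fit as bars and, as black ticks, the lower bound where the dish signal was at background. Ly6c1 and Ly6c2 lie to the right of 0 against dish and to the left for lung minus subcutaneous (-5.52 and -4.52), whereas Ly6e is near 0 in that last comparison.

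The genes lie on chromosome 15, and the order of the RefSeq gene table was used to look at their neighbours. From Psca, a prostate stem cell antigen of the same family, to Ly6h, a brain-enriched relative, the table lists 44 genes and pseudogenes, of which 20 were measured and 15 of those were outside the chosen set. Of these 15, 0 were above background on all 3 arrays of any group. By limma 3 of the 15 were called between subcutaneous and dish samples, 0 between lung and dish samples, and 2 between lung and subcutaneous samples, all at background. Of all genes, 6.41% were called higher and 6.47% lower in the first of these comparisons. The shares were 4.81% and 1.97% in the second, and 9.21% and 5.79% in the third. Ly6i, which lies between Ly6e and Ly6c1, had a log2 signal of 3.93, 3.59 and 4.09 in the dish and 4.51, 6.12 and 5.70 under the skin, a called difference of 1.57 (adjusted p = 0.0143) in values that are all under background. The call was lost without dish replicate 2 or subcutaneous replicate 2 or 3 (adjusted p = 0.0521 to 0.0658). It was also lost with the RNA integrity number as a covariate. The pseudogene 9030619P08Rik, beyond Ly6f, was called in the same direction (1.40, adjusted p = 0.0108), and its lung minus subcutaneous difference was -1.07 (adjusted p = 0.0392). Slurp2, a secreted relative, fell from dish to subcutaneous samples (difference -1.15, adjusted p = 0.0207), a call lost without dish replicate 2 or 3 or subcutaneous replicate 1 (0.0698 to 0.0998). The RNA integrity number as a covariate ended the Slurp2 call too. Thus the measured neighbours on either side of Ly6e, Ly6c1 and Ly6c2 gave no signal above background, while 9 protein-coding genes of the stretch, Ly6a, Ly6a2 and Ly6g among them, were not analysed here.

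**Figure D3:**
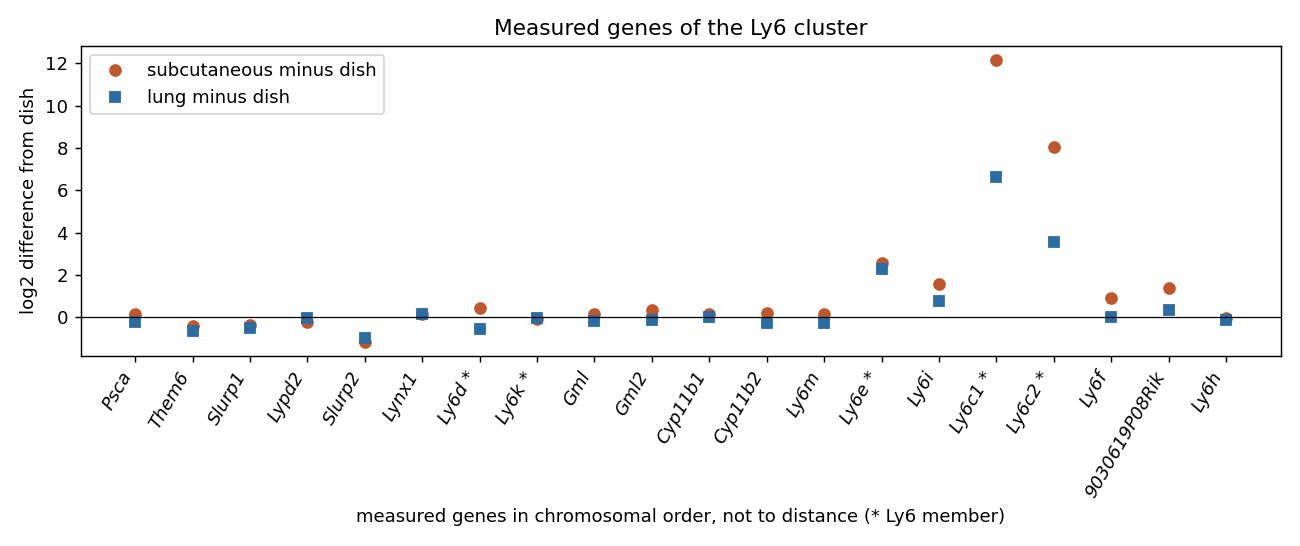
Log2 difference from dish (vertical axis) of the 20 measured genes from Psca to Ly6h, in chromosomal order and not to distance; circles are subcutaneous minus dish, squares lung minus dish, and asterisks mark the chosen Ly6 genes. Ly6c1 (12.16 and 6.64), Ly6c2 (8.07 and 3.55) and Ly6e (2.59 and 2.28) lie highest. The other genes lie between -1.15 (Slurp2) and 1.57 (Ly6i), both for subcutaneous minus dish.

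The wider Ly6 and urokinase receptor (uPAR) family shares the 3-finger fold, and 45 of 52 relatives outside the chosen set were measured. Only 2 of the 45 were above background on all 3 arrays of a group, Plaur and Ly6g6d. Between lung and subcutaneous samples 1 was called higher and 1 lower, against 9.21% of all genes higher and 5.79% lower. Between lung and dish samples 2 were called higher and 1 lower, against 4.81% and 1.97%. Between subcutaneous and dish samples 2 were called higher and 3 lower, against 6.41% and 6.47%. The medians of the family in these comparisons were -0.12, -0.18 and -0.03, beside -0.07, -0.07 and -0.01 for all genes. The call shares of the relatives were close to or below those of all genes.

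Plaur, the receptor that holds urokinase at the cell surface, was the called relative above background. It had the opposite sign to Ly6c1 between lung and subcutaneous samples only. Its log2 signal was 10.89, 10.82 and 10.01 in the dish, 11.36, 10.77 and 11.63 under the skin, and 13.31, 12.58 and 12.26 in the lung. All lung arrays lay above all others, and the dish and subcutaneous arrays overlapped. Plaur rose by 2.14 from dish to lung (standard error 0.34, limma adjusted p = 0.00313) and by 1.46 from subcutaneous to lung (adjusted p = 0.0123), and the subcutaneous minus dish difference of 0.68 was not called (adjusted p = 0.238). Removing subcutaneous replicate 2 or lung replicate 1 ended the call between the transplanted groups (adjusted p from 0.0507 to 0.0674).

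The other called relatives were all under background in every group. Ly6f fell by 0.91 between subcutaneous and lung samples (adjusted p = 0.0479), a call lost without any of 7 arrays, namely dish replicate 2 and every subcutaneous and lung array (adjusted p = 0.0505 to 0.139). Quantile normalization, the RNA integrity number as a covariate and the replicate number as a block ended it too. Pate14, of a sperm and prostate expressed subfamily, was higher than in the dish by 2.07 in lung (adjusted p = 0.0101) and by 1.67 in subcutaneous samples (adjusted p = 0.0167). Lypd8, an intestinal antibacterial protein, was lower than in the dish by both (-0.85, adjusted p = 0.0441, and -0.92, adjusted p = 0.0179), and Ly6g5c was lower in subcutaneous than dish samples (-0.88, adjusted p = 0.0395). Without dish replicate 2 all 5 of these calls against dish were lost, and each but that of Pate14 in the lung was lost without other arrays too (adjusted p = 0.0527 to 0.15 in all). With the RNA integrity number as a covariate Lypd8 lost both calls and Pate14 that under the skin. At such signals these differences compare background with background.

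**Figure D4:**
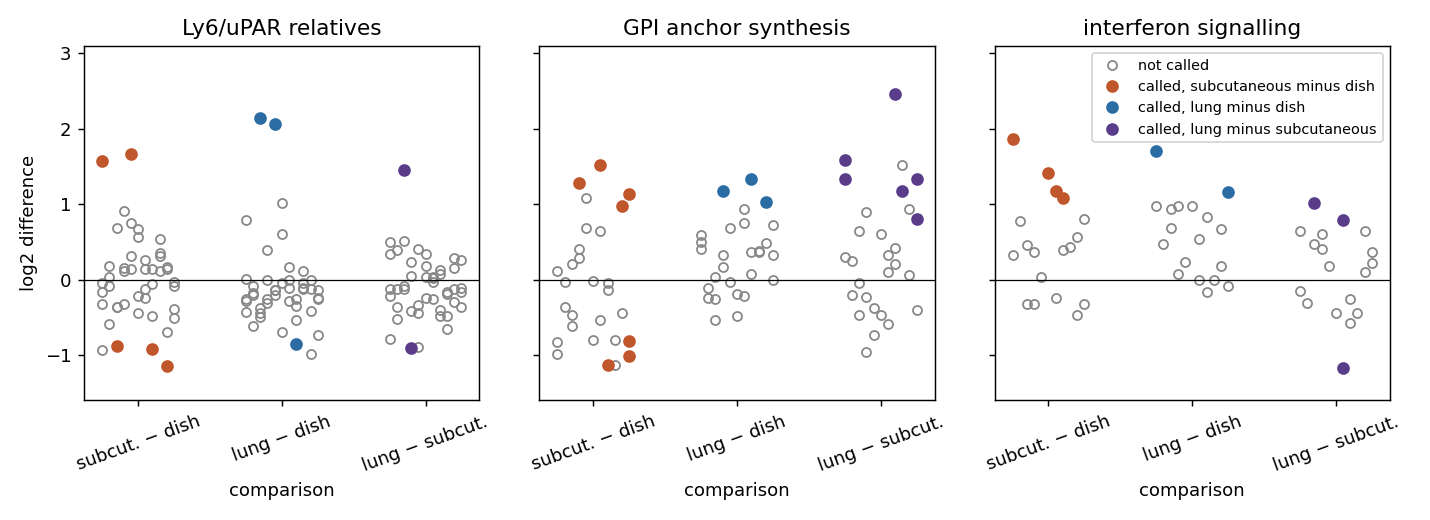
Log2 differences (vertical axis) of the 45 family relatives, 28 GPI anchor genes and 18 interferon signalling genes in the 3 comparisons; filled dots are called genes, open dots those not called, and horizontal scatter has no meaning. The relatives gather around 0 with Plaur highest in lung minus dish (2.14), and 6 GPI anchor genes, up to 2.46 for Pigb, are called higher in lung minus subcutaneous.

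Most Ly6 proteins are held at the surface by a GPI anchor, which is built on the endoplasmic reticulum membrane by the Pig enzymes with mannose supplied through the Dpm complex, and joined to the protein by a transamidase. Of 31 listed genes 28 were measured, and 15 of these were above background on all 3 arrays of a group. Between lung and subcutaneous samples 6 rose and 0 fell, where 9.21% of all genes were called higher and 5.79% lower, with a median of 0.27 beside -0.07 over all genes. Pigb, an anchor mannosyltransferase, rose by 2.46 (limma adjusted p = 0.000327, at least 0.34), Piga, of the enzyme that starts the anchor, by 1.58 (adjusted p = 0.00536, at least 0.45), and Dpm2, a regulatory subunit of the mannose donor synthase, by 1.33 (adjusted p = 0.00658, at least 0.75). Pigq, a partner of Piga, rose by 1.33 (adjusted p = 0.00932) and was above background in both groups. The other called genes were Pigo, at background in both groups (1.18, adjusted p = 0.038), and Pigf (0.80, adjusted p = 0.045). Pigf lost its call without any array but lung replicate 2 (adjusted p = 0.0555 to 0.134), and Pigo without dish replicate 1, subcutaneous replicate 1 or 3, or lung replicate 1 or 3 (0.0521 to 0.135).

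Against the dish the anchor genes went both ways. Between subcutaneous and dish samples 4 rose and 3 fell, where 6.41% of all genes were called higher and 6.47% lower, with a median of -0.09 beside -0.01. Pigu, a transamidase subunit, was at 12.50, 12.35 and 12.55 in the dish and at 13.78, 13.49 and 13.56 under the skin, a rise of 1.14 (adjusted p = 0.00378), with no overlap of the groups and no array whose removal ended the call. Dpm3 (1.52, adjusted p = 0.0229), Pigc (1.28, adjusted p = 0.0322) and Pigx (0.97, adjusted p = 0.0367) rose too, while Pigb (-1.13, adjusted p = 0.0261), Dpm2 (-1.01, adjusted p = 0.0284) and Pigf (-0.81, adjusted p = 0.0491) fell. Removing dish replicate 2 or dish replicate 3 ended the calls of all 6 of these genes, and each was also lost without 1 to 5 other arrays (adjusted p = 0.0535 to 0.144 in all). Pigb was under background on all dish and subcutaneous arrays, so its difference compares background with background. Pigc was under background on all dish arrays and above it on 1 subcutaneous array, and Dpm2 was under background on all subcutaneous arrays. With the RNA integrity number as a covariate 1 of the 7 calls was left, and leaving out dish replicate 3 also left 1. Of all genes, 4.81% were called higher and 1.97% lower between lung and dish samples. Among the anchor genes 3 rose there (Pigb by 1.33, adjusted p = 0.0197, Pigt by 1.17, adjusted p = 0.0364, and Pigx by 1.03, adjusted p = 0.044) and 0 fell. That count was 0 after quantile normalization, without dish replicate 2 or 3 or without lung replicate 1, and 1 without dish replicate 1 or lung replicate 2.

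Ly6c and Ly6e are known interferon targets, so the receptors and signal carriers of the pathway were looked at. Of the 18 measured genes of this list, 7 were above background on all 3 arrays of a group. Between subcutaneous and dish samples 4 rose and 0 fell, where 6.41% of all genes were called higher and 6.47% lower, with a median of 0.41 beside -0.01 over all genes. Ifnar1, a chain of the type I interferon receptor, was at 6.49, 5.39 and 6.45 in the dish, 7.80, 8.19 and 7.91 under the skin, and 8.04, 7.48 and 7.92 in the lung. The dish arrays lay under background and all 6 transplanted arrays above it, with a rise of 1.86 under the skin (adjusted p = 0.00143, at least 0.54) and of 1.71 in the lung (adjusted p = 0.00624, at least 0.39). The other receptor chain, Ifnar2, rose by 1.08 under the skin (adjusted p = 0.0166), as did the kinase Jak1 (1.17, adjusted p = 0.0161) and the transcription factor Stat2 (1.42, adjusted p = 0.037, at least 0.26). With the RNA integrity number as a covariate, and also without dish replicate 2, all of these but Ifnar1 lost their calls, which left 1 of the 4. Ifnar2 and Stat2 also lost it without subcutaneous replicate 2, Jak1 and Stat2 without subcutaneous replicate 1, Jak1 without dish replicate 3, and Stat2 without dish replicate 1 or lung replicate 1 (adjusted p = 0.0503 to 0.147 in all).

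Between lung and dish samples, where 4.81% of all genes were called higher and 1.97% lower, 2 interferon genes rose and 0 fell. They were Ifnar1 and the interferon-gamma receptor chain Ifngr2 (1.16, adjusted p = 0.0164, lost without dish replicate 2 or 3 or lung replicate 2, with adjusted p = 0.059 to 0.0706). Between lung and subcutaneous samples Jak1 fell (-1.18, adjusted p = 0.0152, or 0.0517 without subcutaneous replicate 1), and the deconjugase Usp18, at background, and the phosphatase Ptpn2 rose (1.01, adjusted p = 0.0204, and 0.79, adjusted p = 0.0487). Of all genes, 9.21% were called higher and 5.79% lower in that comparison. Usp18 lost its call without subcutaneous replicate 2 or lung replicate 1 or 3, and Ptpn2 without any array but dish replicate 3 (adjusted p = 0.051 to 0.154 for both). Ifnar1 itself differed by -0.15 between the lung and subcutaneous groups and was not called (adjusted p = 0.792). The part of interferon in the Ly6 signals was not tested.

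Since Ly6 genes mark blood and stromal cells, lists of markers of 6 other cell types were read beside them. In the monocyte and macrophage list 10 of 13 measured genes were under background on all 9 arrays, among them the chemokine receptor Ccr2, the growth factor receptor Csf1r, the integrin Itgam and the pan-leukocyte gene Ptprc. The summed signal of the list (log2 of the sum of linear signals) was 9.70 to 10.24 in the dish, 9.46 to 10.07 under the skin and 10.11 to 11.83 in the lung. The lipopolysaccharide co-receptor Cd14 was above background on all 3 arrays of each group, at a mean of 8.31 in the dish, 8.53 under the skin and 9.14 in the lung, and was not called in any comparison (adjusted p = 0.17 to 0.746). The part of these cells in the Ly6c signal was not tested. Plac8 (2.85 higher in lung than in subcutaneous samples, adjusted p = 0.00704, at least 2.00) and Lyz2 (2.33, adjusted p = 0.045, at least 1.17) were called higher, and Cx3cr1 and F13a1 lower at background (-1.10, adjusted p = 0.0149, and -1.15, adjusted p = 0.0474). Plac8 was also seen in the cultured cells, at 8.80, 8.99 and 7.02 in the dish, beside 5.63, 6.87 and 7.49 under the skin and 9.27, 8.64 and 10.62 in the lung. Lyz2 was at 6.66, 5.82 and 6.58 under the skin and at 9.68, 6.32 and 10.04 in the lung. Its lung replicate 2 was under background and overlapped the subcutaneous arrays. Lyz2 lost its call without any array but lung replicate 2, F13a1 without dish replicate 2 or 3, subcutaneous replicate 1 or 3, or lung replicate 1 or 2, and Cx3cr1 without lung replicate 1 (adjusted p = 0.052 to 0.178 in all). Quantile normalization and the RNA integrity number as a covariate also ended the Lyz2 call. Lyz2 was called higher in lung than in dish samples too (2.93, adjusted p = 0.0274). That call was lost without any dish array or lung replicate 1 or 3.

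Of 11 endothelial genes 10 were under background on all arrays, including Pecam1, Cdh5, Kdr, Tek and Vwf, and the summed signal was 8.19 to 8.36 in the dish, 8.06 to 8.70 under the skin and 8.63 to 10.15 in the lung. The exception was the receptor Eng, called higher in lung than in subcutaneous (2.44, adjusted p = 0.00881, at least 1.23) and dish samples (1.95, adjusted p = 0.0456). The call against dish was lost without any dish array, subcutaneous replicate 3 or lung replicate 1 or 2 (0.0564 to 0.182). Ramp2, at background, was called higher in subcutaneous than in dish samples (1.25, adjusted p = 0.0193). That call was lost without dish replicate 2 or subcutaneous replicate 3, and with the RNA integrity number as a covariate (0.0729 to 0.078). All 8 neutrophil genes, all 8 keratinocyte genes and 8 of 9 T, NK and B cell genes were under background on every array, with summed signals of 6.77 to 7.67, 7.71 to 8.26 and 7.69 to 8.63. The remaining gene, Cd4, was called lower in lung than in dish samples (-1.11, adjusted p = 0.0498). That call was lost without any dish array, subcutaneous replicate 1, or lung replicate 1 or 2.

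The summed signal of the fibroblast list had the same order of groups as Ly6c1 and Ly6c2. It was 9.78 to 10.13 in the dish, 16.55 to 17.26 under the skin and 11.19 to 14.11 in the lung. In the transplanted groups most of this sum was Dcn alone, at 16.47, 17.09 and 16.37 under the skin and 13.94, 12.15 and 10.53 in the lung. Between subcutaneous and dish samples 4 of 11 rose and 1 fell, where 6.41% of all genes were called higher and 6.47% lower. The matrix proteoglycans Dcn (9.59, adjusted p = 1.61e-06) and Lum (7.40, adjusted p = 2.24e-07, at least 5.77), the surface sialomucin Cd34 (3.01, adjusted p = 0.000611) and Dpt (2.35, adjusted p = 0.000127, at least 0.66) were higher. Cd34 was above background in the cultured cells too, at 8.65, 8.40 and 8.08 in the dish. Pdgfrb fell (-1.17), a call lost without dish replicate 1 or 3, subcutaneous replicate 2 or 3, or lung replicate 1. Between lung and subcutaneous samples 5 fell and 0 rose, where 5.79% of all genes were called lower and 9.21% higher. Among the 5 were Lum (-6.12, adjusted p = 3.67e-06), Dcn (-4.44, adjusted p = 0.00057) and Dpt (-2.31, adjusted p = 0.000285). The others were Cd34 (-1.63, adjusted p = 0.0249) and, at background, Thy1 (-1.16, adjusted p = 0.00709). The Cd34 call was lost without subcutaneous replicate 3 or lung replicate 3. Between lung and dish samples 1 of 11 rose and 0 fell, where 4.81% of all genes were called higher and 1.97% lower. This was Dcn (5.15, adjusted p = 0.000455). The fibroblast genes Col1a1, Col1a2, Col3a1, Pi16, Thy1 and Fbln1 were under background on all 9 arrays. Within the lung group the orders differed: the fibroblast sum was 14.11, 12.58 and 11.19 on replicates 1, 2 and 3, while Ly6c1 was lowest on replicate 1 (11.46) and highest on replicate 2 (12.81). The part of fibroblasts in the Ly6c signal was not tested. In bulk samples, a change in the number of cells of a kind and a change in RNA per cell cannot be told apart.

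**Figure D5:**
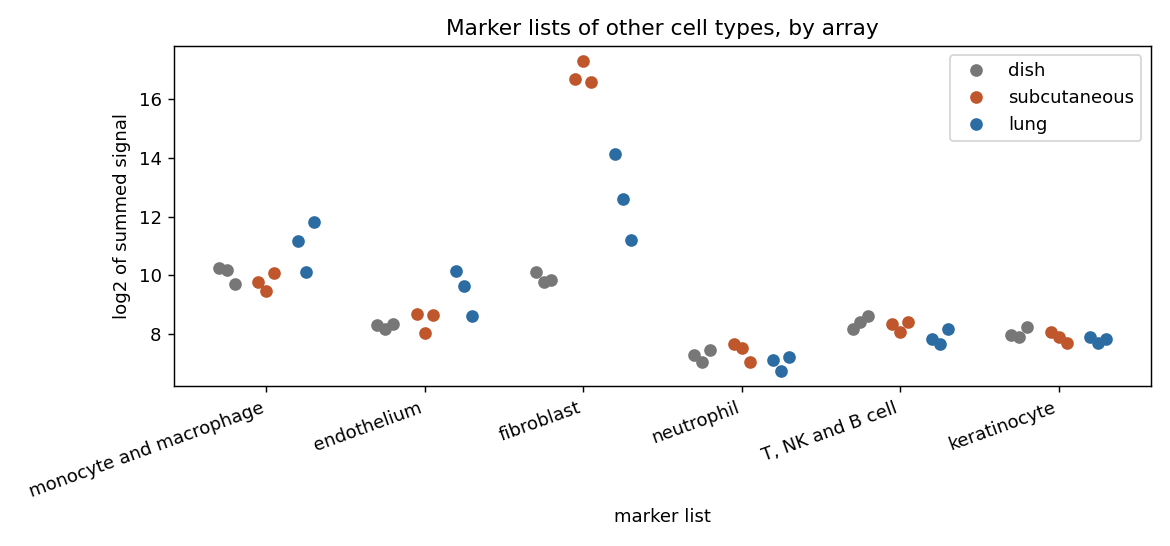
Log2 of the summed linear signal (vertical axis) of 6 marker lists of other cell types on each array, by group; each dot is 1 array. The fibroblast list runs from 9.78 to 10.13 in the dish up to 16.55 to 17.26 under the skin, mostly through Dcn. The other lists stay under 12 on every array.

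The genes whose pattern over the 9 arrays was most like that of each expressed Ly6 gene were found by the root mean square difference of values centred on each gene's own mean, among 6310 other genes above background on all 3 arrays of a group. For Ly6c1 they were Dcn (1.48 on the log2 scale), Ly6c2 (1.88), Lum (2.50), the Wnt antagonist Dkk2 (2.53) and the urea transporter Slc14a1 (2.67). For Ly6c2 they were Dkk2 (0.88), Slc14a1 (1.11), Lum (1.14), the glutathione transferase Gstt1 (1.22) and Dcn (1.27), and Ly6c1 came 20th in order. All of them were lowest in the dish and highest under the skin. Slc14a1, for instance, was at 9.09, 8.32 and 7.79 in the dish, 14.14, 14.50 and 14.36 under the skin, and 11.17, 10.22 and 11.45 in the lung.

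The genes most like Ly6e formed another set and lay closer to it: the lysosomal sulphatase Arsa (0.25), the endocytic adaptor Dab2 (0.31), the early response gene Ier3 (0.33), the basement membrane gene Nid1 (0.33) and the retroelement silencing factor Resf1 (0.33). Each was higher in both transplanted groups than in the dish, by 1.95 to 3.25. Arsa shared the dip of Ly6e on lung replicate 3, at 10.66, 10.71 and 9.62 on the lung arrays. Likeness here is a ranking over 9 arrays in 3 groups and carries no test. The distances are not scaled to a gene's range, which was smaller for Ly6e than for Ly6c1 and Ly6c2, so their sizes do not compare between these genes. For Ly6c1 and Ly6c2 the measure also favours genes with large differences between the groups, the kind of value by which the Ly6 genes were chosen.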

How the data were processed

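The authors deposited 1 table of log2 signals (28846 features, 1 column per array, 1.56 to 19.71), used as deposited. Per the labels' protocols, sense-strand cDNA made from column-purified RNA carried biotin, for a 1-colour array. How the values were normalized, and with what software or build, is not given in the sources used here. Array medians were 5.26 to 5.43. Of the features 22206 were gene features and 5222 negative controls, 19572 had 1 gene symbol, 0 had several and 2634 gene features had none. The highest mean feature was kept for the 55 genes with several, leaving 19505 genes, with no filter on level. Depth has no meaning for arrays, and 3 arrays per group limit the precision.

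The tests used lmFit and eBayes of limma 3.58.1 (R 4.3.3, no trend) on all 9 arrays with 3 group means (6 residual and 7.08 prior degrees of freedom), two-sided, with Benjamini-Hochberg adjustment over all genes and a call at an adjusted p under 0.05. The fit was tested on simulated data. "Rose" and "fell" are used of called genes outside the chosen set. "At least" replaces a signal under background on all 3 arrays of a group by that of the background level. The members and lists were chosen with earlier results of these data known. The genes named were all chosen Ly6 genes, up to 6 called genes per list and comparison (4 per marker list) by size of difference, measured neighbours, and the 5 genes of nearest pattern. The called fibroblast genes Pdgfrb and Thy1, and the anchor gene Pigf, were named as well. Alternatives were quantile normalization, a filter on dim genes, RNA integrity number (RIN, 7.50 to 8.60) as a covariate, an intensity trend, array weights, fits of only the groups compared, the replicate number as a block, and leaving out each array. Calls given as lost without named arrays were in some cases also lost under other alternatives, which are not all listed. The deviations of same-numbered arrays from their group means correlated at -0.057 to 0.085 over genes, so the numbers were not taken to pair the samples.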

Additional observations from a re-analysis of the deposited data

Results flagged for a closer look

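Pigb, the anchor mannosyltransferase, was called against dish with opposite signs in the 2 transplanted groups, but it was under background on all dish and subcutaneous arrays. Its log2 signal was 6.62, 6.32 and 6.60 in the dish, 5.62, 5.74 and 4.80 under the skin, and 8.21, 7.96 and 7.37 in the lung. It was called higher than dish in the lung (1.33, at least 0.42, limma adjusted p = 0.0197). The called difference under the skin (-1.13, adjusted p = 0.0261) compares background with background, and the difference between the 2 effects, which is the lung minus subcutaneous difference, was 2.46 (adjusted p = 0.000327), or at least 0.34 against the background level. The 3 lung samples lay above all dish samples and the 3 subcutaneous samples below them. With the RNA integrity number as a covariate both calls against dish were lost, and after quantile normalization that in the lung. The call against dish in the lung was lost without dish replicate 2 or 3 or lung replicate 1 or 2 (adjusted p = 0.0569 to 0.0992), and that under the skin without any dish array or subcutaneous replicate 3 (0.0535 to 0.0958). The lung minus subcutaneous call held in every alternative run.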

How the results depend on the processing

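The differences of the 5 Ly6 genes were recomputed under every alternative, 234 values in all, of which 233 moved by less than 1 SD between replicates and 0 called values changed sign. The exception was Ly6k, at background, for lung minus subcutaneous (0.22 after quantile normalization). Leaving out each array gave, for lung minus subcutaneous, -5.90 to -5.22 for Ly6c1, -4.87 to -4.29 for Ly6c2 and -0.55 to 0.07 for Ly6e. For lung minus dish it gave 6.25 to 7.06, 3.33 to 3.91 and 2.04 to 2.65, and for subcutaneous minus dish 11.77 to 12.58, 7.88 to 8.43 and 2.54 to 2.65. The numbers of Ly6 genes above background in the dish (1), under the skin (3) and in the lung (3) were the same with the 95th percentile of the negative controls. Averaging several features per gene could not be tried, as each of the 5 had 1 feature, and the filter on dim genes gives no value for Ly6d and Ly6k.

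Counts of called genes were less steady. Of all genes 2927 were called for lung minus subcutaneous, 1322 for lung minus dish and 2513 for subcutaneous minus dish. Leaving out each array gave 1476 (without lung replicate 1) to 2928, 514 (without dish replicate 2) to 1442, and 1639 (without dish replicate 2) to 2738. The RIN covariate gave 856 for lung minus dish and 1280 for subcutaneous minus dish, and array weights 3039 for lung minus dish. For the relatives, lung minus subcutaneous had 2 calls, 1 after quantile normalization, with the dim filter or with the replicate block, and 0 to 2 without single arrays. Lung minus dish had 3, or 1 with the dim filter, 6 with array weights and 1 to 3 without single arrays, and subcutaneous minus dish had 5, or 0 with the dim filter, 1 with the RIN covariate and 0 to 7 without single arrays. For the GPI anchor genes, lung minus subcutaneous had 6, or 10 with array weights and 4 to 7 without single arrays; lung minus dish had 3, or 0 after quantile normalization, 1 with the RIN covariate, 5 with array weights and 0 to 3 without single arrays; subcutaneous minus dish had 7, or 1 with the RIN covariate and 1 to 8 without single arrays. For interferon signalling, lung minus subcutaneous had 3, or 1 to 3 without single arrays, and lung minus dish had 2, or 1 after quantile normalization, 4 with the dim filter, 6 with array weights and 1 to 3 without single arrays. Subcutaneous minus dish had 4, or 1 with the RIN covariate and 1 to 4 without single arrays. The cause of these changes was not tested, beyond fewer genes or arrays in the fit. The replicate block moved no other count by over 1.5 times. Quantile normalization moved the median of all genes by under 0.1. Signals under background, as for Ly6d, Ly6k and most relatives, set no level.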
